A study of Homo sapiens with 4 samples.

Results

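MS-275 alone was set against untreated HCT116 cells on 2 of the 4 arrays of the series, and all 14884 genes that could be named on them are the members described here. A gene is a transcript cluster (the set of probes that covers a transcribed locus) with 1 gene symbol, and of several clusters of a gene only the brightest counted. HCT116 is an established line from a human colorectal carcinoma, and every array holds its RNA. The MS-275 cells received 2 µM of the drug for 24 h, and the control cells received none. The other arrays hold cells incubated for 24 h with 2 µM MS-275 and 1 mM hydroxyurea, or with 1 mM hydroxyurea alone. Each condition has 1 array, so no difference has a replicate check, no p-value is given, and the differences describe these arrays.

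MS-275 (entinostat) is a benzamide that inhibits HDAC1, HDAC2 and HDAC3. These class I histone deacetylases remove acetyl groups from lysines of histones and of many other proteins, and they sit in large complexes that repressors bring to promoters. Acetylated histones are a mark of open chromatin, and inhibitors of these enzymes are known for both higher and lower transcripts. In tumour cells they are also known to slow passage through the cell cycle.

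The values are intensities on a linear scale. Their median over all 53617 clusters was 47.1 on the MS-275 array and 47.0 on the untreated array. A gene entered the counts when its log2 intensity, averaged over the 4 arrays, was no lower than the median named cluster, which lay at 90.5. This filter passed 7649 genes and left out 7235. A difference is the log2 ratio of the intensities, MS-275 over untreated, with no pseudocount. Epithelial identity was visible on both arrays. Of the 10 epithelial marker genes 9 were named, and 7 of these lay above the filter on the MS-275 array and 7 on the untreated array, with summed intensities of 6750 and 7195. Of the 7 that passed the filter KRT19 was past 1.5-fold upwards and 2 were lower by as much, with a median log2 ratio of -0.41 that was -0.02 over all 9. KRT18 read 2090 with MS-275 and 1646 in untreated cells, and EPCAM read 865 and 1152. CDX2 and VIL1 lay below the filter on both arrays. Of 6 named endothelial and 3 named fibroblast markers, 0 reached the filter on either array, and of 4 named leukocyte markers only CD68, a lysosomal protein that is not limited to leukocytes, did so (231 with MS-275 and 177 in untreated cells).

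Most genes differed little. The log2 ratio had a median of -0.01, and 6595 of the 7649 genes (86.2%) lay within 1.5-fold. Relative to untreated cells, 531 genes (6.94%) were higher with MS-275 by 1.5-fold or more, and 523 (6.84%) were lower by as much. At 2-fold the counts were 138 higher (1.80%) and 83 lower (1.09%). At 4-fold they were 14 higher and 2 lower, so more of the genes past 4-fold were higher than lower.

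**Figure D1:**
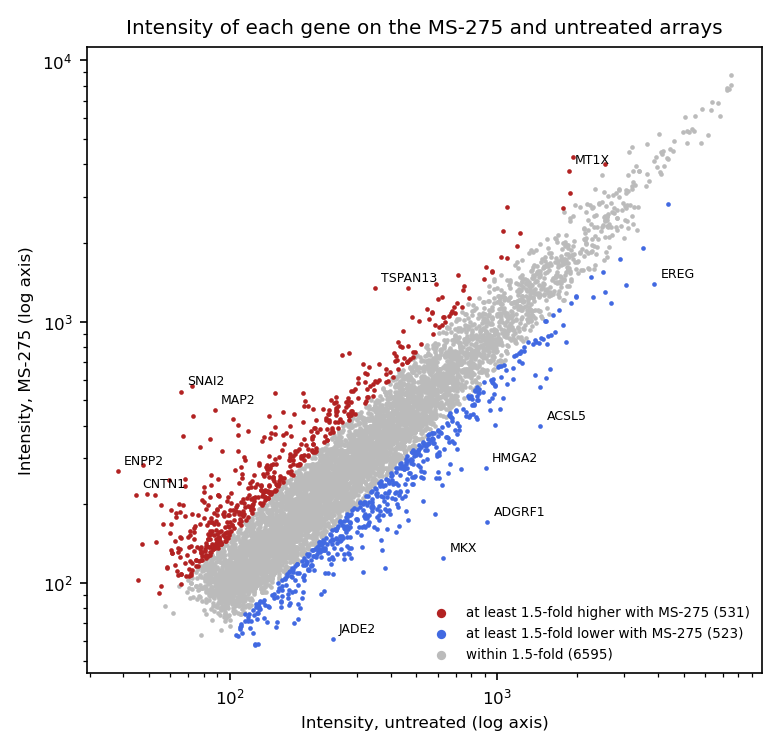
Intensity of each of the 7649 genes past the filter on the MS-275 array (vertical, log axis) against the untreated array (horizontal, log axis), 1 point a gene. The 531 genes at least 1.5-fold higher (red) include genes that were dim in untreated cells, and the 523 lower genes (blue) extend to bright genes such as EREG.

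Levels in untreated cells depend in part on how genes were admitted. The filter used the mean of all 4 arrays, so a gene that was dim in untreated cells could pass through the arrays with MS-275, whereas a lower gene that passed was nearly bound to lie above the filter in untreated cells. The genes that were at least 2-fold higher had a median intensity of 259 with MS-275 and 90.9 in untreated cells, and 68 of the 138 (49.3%) lay below the filter in untreated cells. Those at least 2-fold lower had a median of 173 with MS-275 and 398 in untreated cells. Over all genes past the filter the medians were 237.2 and 237.4. Since the ratio itself uses the untreated value, the genes were also binned by their mean over the 4 arrays. Of 5 bins of equal size, the dimmest had 9.28% of genes higher and 4.18% lower, and the brightest had 4.38% higher and 7.32% lower. The genes at least 2-fold higher also spanned longer stretches of the genome, with a median length of 53.2 kb (gene bodies of the RefSeq annotation of GRCh38.p14), against 28.2 kb over all genes past the filter. The lower genes at 2-fold had a median length of 44.6 kb. At 1.5-fold the median was 42.4 kb for the higher genes but 29.0 kb for the lower genes, close to that of all genes. Over the autosomes and the X chromosome, the share of higher genes was lowest on chromosome 20 (3.32% of 211 genes) and highest on chromosome 4 (11.4% of 271 genes).

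The gene with the highest ratio was SNAI2, which encodes Slug, a zinc-finger repressor known for its part in epithelial to mesenchymal transition. Its intensity was 540 with MS-275 and 65.7 in untreated cells, a ratio of 8.22. SYT11, a synaptotagmin of vesicle membranes, read 567 with MS-275 and 72.2 in untreated cells (7.85-fold). ENPP2, which encodes autotaxin, the secreted enzyme that makes lysophosphatidic acid, read 268 and 38.1 (7.03-fold). All 3 were below the filter intensity in untreated cells and above it with MS-275. The untreated value of ENPP2 lay below the 47.0 median of all clusters and within the range of the endothelial markers (14.3 to 43.3), so its ratio is set against a signal that cannot be told from background.

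The other genes among the 15 highest are taken here by what they encode. Some belong to the cytoskeleton and adhesion of neurons. MAP2, which binds microtubules in dendrites, was 5.23-fold higher (460 with MS-275 and 88.0 in untreated cells). CNTN1 and NCAM1 are adhesion molecules of neurons. CNTN1 read 217 with MS-275 and 44.5 in untreated cells, the second of these also below the median cluster. NCAM1 was 4.13-fold higher, and DNER, a transmembrane protein of neurons with EGF repeats, was 4.13-fold higher. RCAN2, a regulator of the phosphatase calcineurin, was 5.99-fold higher. Others act at the plasma membrane. PAG1, an adaptor that recruits the kinase CSK to lipid rafts, was 5.49-fold higher. EFR3B, which anchors a phosphatidylinositol 4-kinase at the membrane, was 4.18-fold higher, and TSPAN13, a tetraspanin, was 3.85-fold higher. TSPAN13 was the brightest of the 15, with 1347 with MS-275 and 350 in untreated cells. CD24, a small glycoprotein of the cell surface, was 3.75-fold higher. DHRS2, a short-chain dehydrogenase, was 4.44-fold higher, SGPP2, which removes the phosphate from sphingosine-1-phosphate, read 354 and 84.3, and THBS1, the matrix glycoprotein thrombospondin-1, was 4.30-fold higher. Of these 15 genes, 12 lay below the filter in untreated cells, where ratios rest on a dim value.

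Among genes whose mean was under the filter but whose MS-275 intensity reached it, the highest ratios belonged to PLAG1, a zinc-finger transcription factor (156 with MS-275 and 34.7 in untreated cells), and STC1, the secreted glycoprotein stanniocalcin-1 (99.1 and 24.2). P3H2, a collagen prolyl hydroxylase, TLL2, a metalloprotease of the tolloid family, and VWA5A followed. The untreated values of PLAG1, STC1, P3H2 and TLL2 lay below the median of all clusters, so no fold is given for them. These 5 are outside the counts of genes past the filter.

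At the other end stood ADGRF1, an adhesion G protein-coupled receptor. It read 171 with MS-275 and 920 in untreated cells, 5.38 times lower. MKX, a homeobox factor known from tendon, read 124 and 630 (5.06 times lower). JADE2, a scaffold of a histone acetyltransferase complex, read 60.8 and 243 (3.99 times lower), and it was the only one of the 15 lowest genes that lay under the filter with MS-275.

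The other genes among the 15 lowest encode metabolic enzymes, growth factors and their adaptors, chromatin and transcription factors, and replication proteins. ACSL5, which activates long-chain fatty acids, was 3.66 times lower (398 with MS-275 and 1455 in untreated cells), and DHRS3, which reduces retinal, was 3.34 times lower. EREG, the EGF receptor ligand epiregulin, was the brightest of the 15 and read 1388 with MS-275 and 3882 in untreated cells (2.80 times lower). LIF, a cytokine of the interleukin-6 family, was 2.88 times lower, and IRS1, the docking protein of the insulin receptor, 2.77 times lower. HMGA2, an architectural chromatin protein of embryonic and tumour cells, read 274 with MS-275 and 906 in untreated cells. NFKB1, which encodes the p105 and p50 subunits of NF-kappaB, was 2.68 times lower. ZBTB2, a zinc-finger protein, was 2.68 times lower, and TRIP6, a LIM-domain protein of focal adhesions, 3.19 times lower. The replication genes MCM5 and MCM10 were 2.70 and 2.61 times lower, and LMNB1, which encodes lamin B1 of the nuclear envelope, was 2.61 times lower.

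**Figure D2:**
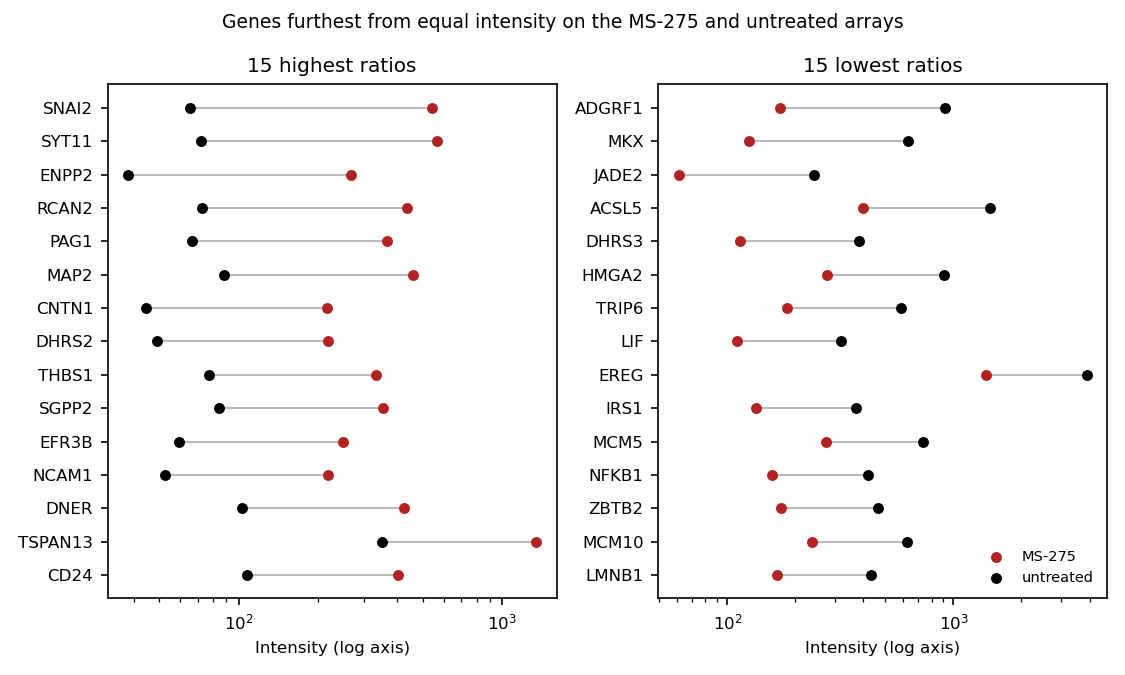
Intensity with MS-275 (red) and in untreated cells (black) for the 15 genes with the highest and the 15 with the lowest ratio among those past the filter, on log axes. The untreated values of most higher genes lie below 90.5, and those of the lower genes lie between 243 and 3882.

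Most of the named genes of the DNA replication machinery were lower with MS-275. Only 8 of 15 genes on the helicase loading list and 4 of 26 on the polymerase and clamp list were named. The replicative polymerases are not among the named genes. Before replication the MCM2 to MCM7 helicase is loaded onto origins by CDC6 and CDT1, and it is then activated by CDC45, the GINS proteins, MCM10 and their partners. All 8 named helicase loading genes were at least 1.5-fold lower, against 6.84% of all genes, with a median log2 ratio of -0.92. MCM5 read 273 with MS-275 and 735 in untreated cells, MCM2 read 265 and 603 (2.28 times lower), and MCM3 read 622 and 1384 (2.22 times lower). CDC6 was the least different of the 8 (755 with MS-275 and 1209 in untreated cells). Of the 15 genes of helicase activation and fork protection, 10 were lower and 0 higher, with a median of -0.73. WDHD1, which couples the helicase to polymerase alpha, read 251 and 529, and CDC45 read 201 and 388. GINS4 (238 with MS-275 and 221 in untreated cells) and CDC7, the kinase that fires origins (245 and 261), differed little. The 4 named genes of the sliding clamp and lagging strand were all lower. PCNA, the clamp itself, read 746 and 1177 (1.58 times lower), and FEN1, the flap nuclease, read 180 and 318. The RNA of each array came from a whole culture, so a smaller share of replicating cells and less RNA of these genes in each cell cannot be told apart.

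Of 18 nucleotide synthesis genes, 1 was lower and 1 higher, and the median log2 ratio was -0.29. The lower gene among these was TYMS, thymidylate synthase, which read 608 with MS-275 and 1523 in untreated cells (2.50 times lower). The higher gene was SAMHD1, which breaks down deoxynucleotides, at 800 and 442 (1.81-fold). The large and small subunits of ribonucleotide reductase, the enzyme that hydroxyurea blocks, read 576 and 859 for RRM1 and 778 and 911 for RRM2, both within 1.5-fold. UNG, the glycosylase that removes uracil from DNA, was 2.49 times lower (264 and 657), and PARP2, which senses DNA breaks, read 170 and 282, whereas the other 19 of 21 genes of mismatch, excision and end-joining repair stayed within 1.5-fold.

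Genes of mitosis were also lower, in a smaller share. Over the 3 replication lists 22 of 27 genes were lower (81.5%), and over 4 mitosis lists 40 of 83 (48.2%). Of 22 kinetochore and centromere genes 10 were lower and 0 higher (median -0.58), and all 22 had ratios below 0. NDC80, which links kinetochores to microtubules, read 251 with MS-275 and 607 in untreated cells (2.42 times lower). Of 23 genes of the spindle assembly checkpoint and the mitotic kinases 12 were lower and 0 higher (median -0.59), among them ESPL1, the protease separase (163 and 348), HASPIN, a histone H3 kinase (215 and 454), PLK4, which controls centriole duplication (188 and 389), and PLK1 (1734 and 2883). BUB1 (910 and 1074) and CDC20 (1711 and 2016) stayed within 1.5-fold. Of 23 kinesin and spindle genes 13 were lower and 2 higher (median -0.63). The 2 higher members, KIF5C (216 and 91.3, 2.37-fold) and KIF5A (199 and 133), are transport kinesins of neurons and not spindle motors. The motor of spindle bipolarity, KIF11, read 613 and 1037 (1.69 times lower). Of 15 condensin and cohesin genes 5 were lower and 0 higher (median -0.48), with STAG2, a cohesin subunit, at 249 and 459.

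The regulators of these phases followed. WEE1, the kinase that holds CDK1 inactive, read 404 with MS-275 and 982 in untreated cells and was the lowest of 19 genes of cyclins and their kinases, of which 8 were lower and 1 higher (median -0.44). Cyclin genes of S phase and mitosis were lower, with CCNA2 at 971 and 1774, CCNE2 at 171 and 333 and CCNB1 at 322 and 549. The G1 cyclin gene CCND1 read 1272 and 1326, and CCNG2, a cyclin linked to cell cycle exit, was 1.62-fold higher (176 and 109). Of 16 genes of the E2F and RB family, 4 were lower and 0 higher (median -0.49). These 4 were E2F8 (196 and 426) and E2F7 (342 and 558), repressors of the family, LIN9 (70.6 and 137), a core subunit of the MuvB complex, and FOXM1 (434 and 768), the activator of mitotic genes. RB1 itself read 1235 and 1070.

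Genome maintenance showed a mixed picture. Of 17 homologous recombination genes 8 were lower (median -0.33), with RAD51AP1 at 73.0 and 181 and RAD54L at 109 and 234, while RAD50 (771 and 837) and RAD52 (98.9 and 99.6) were nearly level. Of 14 checkpoint genes 5 were lower (35.7%, against 6.84% of all genes). Among these, WEE1 is also on the cyclin list, and CLSPN and TOPBP1 are also on the helicase activation list. CHEK1 read 309 with MS-275 and 515 in untreated cells (1.67 times lower) and CHEK2 read 105 and 170 (1.61 times lower). ATR, the apical kinase, read 195 and 195, and TP53BP1 read 322 and 366. Of 6 Fanconi anaemia genes 1 was lower, the helicase gene BRIP1 at 459 and 944.

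Over 10 lists of replication, cell cycle, mitosis and recombination together, 162 genes passed the filter, of which 82 were lower (50.6%) and 3 higher. They make up 15.7% of the 523 lower genes.

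**Figure D3:**
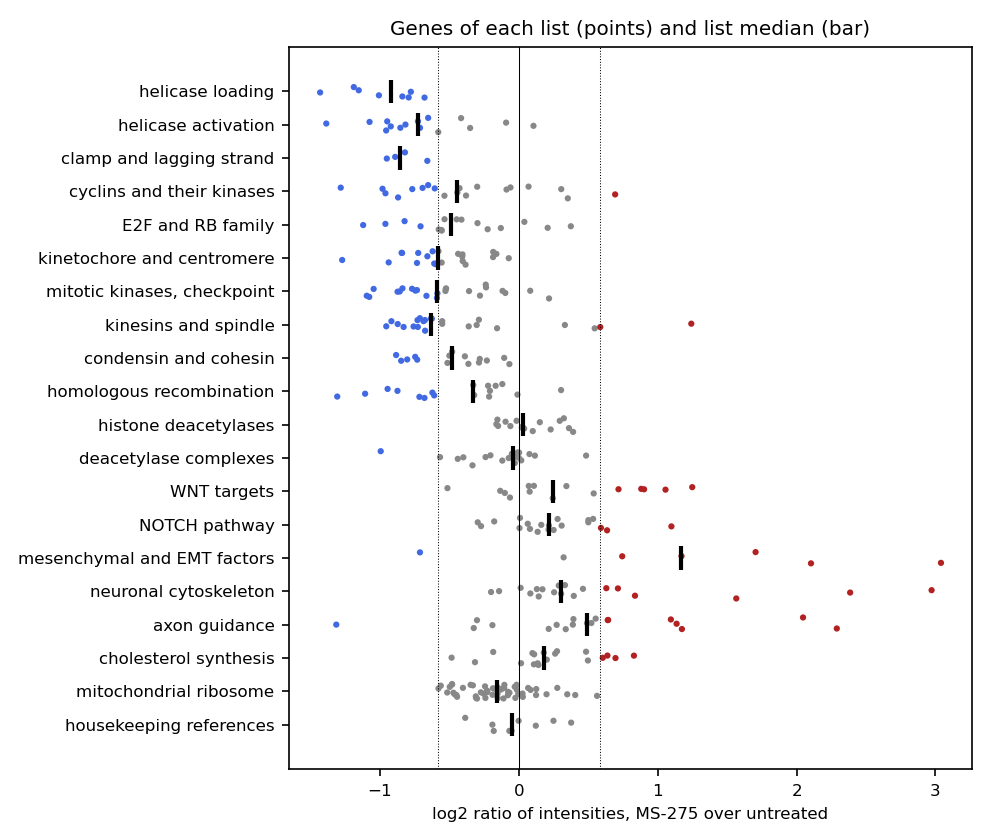
Log2 ratio of intensities (MS-275 over untreated, horizontal) of each gene past the filter in 20 gene lists, 1 point a gene, with the list median as a black bar and 1.5-fold as dotted lines. The replication and mitosis lists at the top lie mostly left of 0, and the mesenchymal, neuronal and axon guidance lists extend to the right.

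The start sites of these genes were then inspected, because promoters of replication genes are known for E2F sites and those of mitotic genes for the cell cycle homology region (CHR), which the MuvB complex binds. RefSeq promoters (GRCh38.p14, 250 bases before to 50 bases after the start) were matched to 6108 of the 7649 genes. Motifs were searched on both strands. An E2F motif was any of TTTCGCGC or TTTGGCGC or TTTCCCGC or TTTGCCGC. A CHR motif was TTTGAA or TTCGAA. The CCAAT box was searched by these letters, the GC box as GGGCGG and the E-box as CACGTG. The metal response element was searched as TGCACNC or TGCGCNC. The E2F and metal response letters and the GC box can overlap at GC-rich positions. The following stretches are shown because they belong to lower replication genes and hold an E2F motif before the start. Capitals mark the motif, GCGGGAAA being TTTCCCGC read on the other strand, and the distance of the first capital before the gene start is given in bases: CDT1 at chr16:88803724-88803788 (plus strand, 35 bases), GINS2 at chr16:85688955-85689015 (minus strand, 31 bases), PCNA at chr20:5126644-5126711 (minus strand, 59 bases), MCM6 at chr2:135876496-135876563 (minus strand, 90 bases) and MCM3 at chr6:52284879-52284946 (minus strand, 174 bases).
CDT1: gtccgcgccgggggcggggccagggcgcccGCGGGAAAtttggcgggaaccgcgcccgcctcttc
GINS2: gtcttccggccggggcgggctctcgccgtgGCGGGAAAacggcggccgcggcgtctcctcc
PCNA: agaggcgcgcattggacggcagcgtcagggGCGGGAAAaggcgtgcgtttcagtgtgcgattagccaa
MCM6: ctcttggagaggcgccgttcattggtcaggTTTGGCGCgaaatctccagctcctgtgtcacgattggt
MCM3: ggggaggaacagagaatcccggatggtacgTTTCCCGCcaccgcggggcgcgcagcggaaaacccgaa

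An E2F motif was present in 12 of 21 promoters of the replication lists (57.1%), against 5.78% of all 6108 promoters. All 12 belonged to lower genes, but so did 18 of the 21 promoters, and only 3 belonged to genes that were not lower. Among all genes that were at least 1.5-fold lower, 51 of 414 promoters held it (12.3%), and among those at least 1.5-fold higher 9 of 398 did (2.26%). Seen from the motif, 14.4% of the 353 genes with an E2F motif were lower and 2.55% were higher, whereas 6.31% of genes without it were lower and 6.76% higher. The lower genes at 2-fold held it in 20.6% of 63 promoters.

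The mitotic genes carried the other motif. The stretches below belong to lower genes of the mitosis lists, and the capitals mark a CHR motif, TTCAAA being TTTGAA read on the other strand: PLK1 at chr16:23678830-23678888 (plus strand, 29 bases), BUB1B at chr15:40161016-40161068 (plus strand, 23 bases), ESPL1 at chr12:53268238-53268298 (plus strand, 31 bases), CDCA8 at chr1:37692463-37692515 (plus strand, 23 bases), KIF23 at chr15:69414264-69414329 (plus strand, 55 bases) and KIF11 at chr10:92593072-92593129 (plus strand, 28 bases).
PLK1: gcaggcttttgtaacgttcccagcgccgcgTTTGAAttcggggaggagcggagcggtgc
BUB1B: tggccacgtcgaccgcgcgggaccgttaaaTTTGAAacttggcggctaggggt
ESPL1: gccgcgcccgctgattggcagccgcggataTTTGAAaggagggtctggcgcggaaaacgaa
CDCA8: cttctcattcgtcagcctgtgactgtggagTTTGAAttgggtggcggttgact
KIF23: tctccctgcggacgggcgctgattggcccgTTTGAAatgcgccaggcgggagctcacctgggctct
KIF11: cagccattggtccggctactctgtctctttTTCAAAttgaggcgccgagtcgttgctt

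For the promoter counts the mitosis lists leave out condensin and cohesin, which the counts of lower mitosis genes above include. Of 58 promoters of the mitosis lists so taken, 40 held a CHR motif (69.0%), against 11.1% of all promoters. It was found in 24 of the 27 that were lower (88.9%) and in 16 of the 31 that were not (51.6%). In the replication lists 2 of 21 promoters held it (9.52%). Over all lower genes the share was 24.2% of 414 promoters and over all higher genes 9.80% of 398. The CCAAT box was frequent in the mitosis lists (70.7%) and the replication lists (61.9%), but over all lower genes its share was 38.4%, close to the 36.9% of all promoters, and over the higher genes it was 44.2%. The GC box (70.3% of lower, 76.4% of higher and 73.7% of all promoters) and the metal response element (42.8%, 40.7% and 40.2%) differed little. An E-box was present in 12.3% of lower, 6.53% of higher and 10.2% of all promoters. The lower genes had a median of 25 CpG and the higher genes 27, as did all genes. These shares describe letters in a window and do not show binding.

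**Figure D4:**
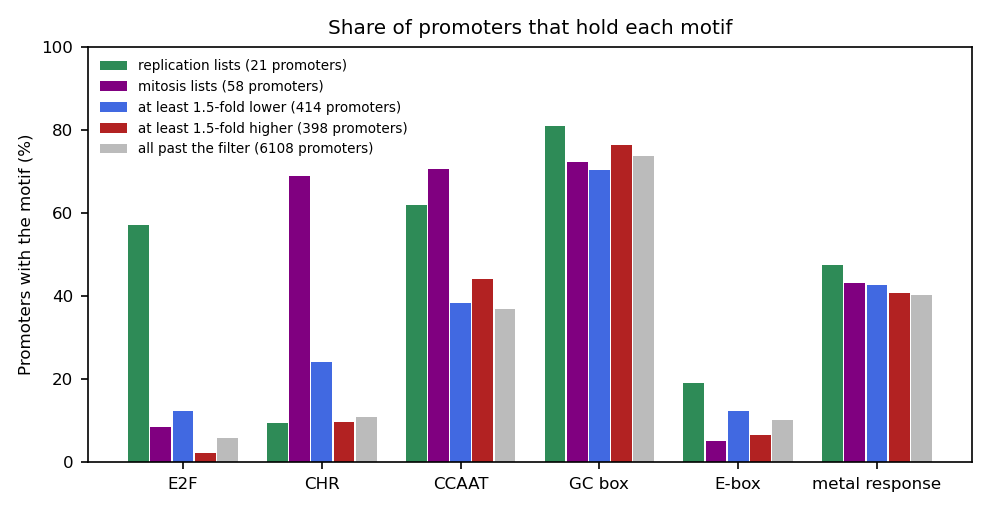
Share of promoters (%) that hold each motif, for the replication lists, the mitosis lists, the genes at least 1.5-fold lower and higher with MS-275, and all genes past the filter. The mitosis lists are shown without condensin and cohesin. The E2F motif stands at 57.1% in the replication lists and the CHR motif at 69.0% in the mitosis lists, and both are more frequent in lower than in higher genes.

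The transcripts of the deacetylases showed no such difference. Of 16 histone deacetylase genes, sirtuins included, 0 were past 1.5-fold in either direction (median 0.03). The 3 targets of MS-275 read 1837 with MS-275 and 1567 in untreated cells for HDAC1, 147 and 148 for HDAC2, and 641 and 512 for HDAC3. Of 20 genes of the complexes in which they work, 1 was lower (5%, near the 6.84% of all genes), the nucleosome remodeller gene CHD3 (182 and 363). Of 14 genes of acetyltransferases and acetyl readers 3 were lower (21.4%, against 6.84% of all genes). They were the coactivator genes NCOA2 (177 and 321) and CREBBP (847 and 1394) and the acetyltransferase gene KAT6B (208 and 342). Among 23 Polycomb and trithorax genes 1 was higher and 1 lower (4.35% each, under the 6.94% and 6.84% of all genes). KDM5B, a demethylase of histone H3 lysine 4, was 1.89-fold higher (687 and 363), and KMT2D, a methyltransferase of the same residue, was lower at 234 and 366. Of 22 genes of histone chaperones, chromatin architecture and maintenance methylation 7 were lower (31.8%, against 6.84% of all genes) and 0 higher (median -0.39). UHRF1, which directs maintenance methylation to new DNA, read 344 and 693, CDCA7 read 136 and 279, and DNMT1, the maintenance methyltransferase, read 1283 and 1818, within 1.5-fold.

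Genes of neuronal character were described by a pair of lists. Of 19 genes of the neuronal cytoskeleton and synapse past the filter 6 were higher and 0 lower (median 0.30), against 6.94% of all genes higher. Besides SYT11 and MAP2 they included VGF, a secreted neuropeptide precursor (318 with MS-275 and 108 in untreated cells, 2.96-fold), MAP1B (366 and 205, 1.79-fold) and MAPT, which encodes tau (434 and 280, 1.55-fold). STMN1, a microtubule destabiliser, read 153 and 152. Of 19 genes of axon guidance and neural adhesion 7 were higher and 1 lower (median 0.49). SLIT2, a secreted guidance cue, read 148 and 65.7 (2.26-fold), EFNB2, an ephrin, 691 and 314 (2.20-fold) and L1CAM 152 and 71.3 (2.14-fold). The lower member was PCDH7, a protocadherin, at 69.9 and 174 (2.49 times lower). In these lists 18 of 37 and 17 of 36 named genes lay below the filter and are outside the counts. Of the higher members, 2 of 6 and 5 of 7 were below the filter intensity in untreated cells and passed through the other arrays. With no filter 8 of 37 and 9 of 36 named genes were higher, against 5.68% of all 14884 genes higher and 4.96% lower, and the medians were 0.14 and 0.27.

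Of 7 mesenchymal and EMT factors past the filter, out of 19 named, 5 were higher and 1 lower (median 1.17). SNAI2 and THBS1 were below the filter intensity in untreated cells and passed through the other arrays, and over all 19 named genes with no filter 6 were higher and 2 lower, with a median of 0.28. Beside SNAI2 and THBS1, FN1, which encodes fibronectin, read 382 with MS-275 and 117 in untreated cells (3.26-fold), LOXL2, a lysyl oxidase of the matrix, 461 and 205 (2.25-fold) and SNAI3 188 and 112 (1.68-fold). SNAI1 read 266 and 213, within 1.5-fold, and S100A4 was lower at 79.1 and 130. The fibroblast markers named above stayed below the filter. Of 29 genes of epithelial adhesion and keratins 2 were higher (6.90%, near the 6.94% of all genes), KRT19 (1083 and 571, 1.90-fold) and GRHL1 (178 and 79.8, 2.23-fold). GRHL1 was below the filter intensity in untreated cells. The 5 lower genes (17.2%, against 6.84% of all genes) included CLDN7 (1104 and 1705), CLDN4 (299 and 456), GRHL2 (220 and 355) and KRT23 (310 and 595). With no filter 3 of 37 named genes were higher (8.11%) and 5 lower (13.5%), against 5.68% and 4.96% of all genes. The median of this list was -0.07. Of the 44 genes on the list of laminins, integrins and matrix proteins only 7 were named, and 5 passed the filter. Their median was 0.69 (0.19 over all 7 named genes), and none of the 5 encodes a laminin or an integrin. The genes of the metalloprotease inhibitors TIMP1 (1545 and 960), TIMP2 (1319 and 747) and TIMP3 (214 and 127) were all higher. The other members, HSPG2 and AGRN, basement membrane proteoglycans, were within 1.5-fold.

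WNT signalling keeps the intestinal stem cell programme active, and HCT116 carries an activated pathway. Of 15 WNT targets and stem cell genes 5 were higher (33.3%, against 6.94% of all genes) and 0 lower (median 0.24). NKD1 (398 with MS-275 and 168 in untreated cells, 2.38-fold) and AXIN2 (464 and 223, 2.08-fold), feedback inhibitors of the pathway, led them, followed by EPHB3 (1.87-fold), LGR4 (1.84-fold) and SOX9 (1.64-fold). MYC, another target, read 590 and 632, and CD44 read 2087 and 2980. In the NOTCH pathway 3 of 20 genes were higher (15%) and 0 lower (median 0.22), with DLL4, a ligand, at 157 and 73.4 (2.14-fold). DLL4 was below the filter intensity in untreated cells and passed through the other arrays. With no filter 6 of 28 named NOTCH genes were higher (21.4%), against 5.68% of all genes.

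Of 20 output genes of the ERK pathway 5 were higher (25%, against 6.94% of all genes) and 2 lower (10%, against 6.84%). JUN read 208 with MS-275 and 78.4 in untreated cells (2.65-fold), FOS read 191 and 103 (1.86-fold, but 1.46-fold as the mean of its clusters, which is under 1.5-fold) and DUSP6, a phosphatase that acts on ERK, read 738 and 419 (1.76-fold). FOSL1, a partner of JUN, was 2.35 times lower at 253 and 594. JUN was below the filter intensity in untreated cells and passed through the other arrays. With no filter 5 of 21 named genes of the ERK list were higher (23.8%), against 5.68% of all genes. Of 15 YAP and TEAD genes 2 were higher (13.3%) and 4 lower (26.7%), and the median of -0.08 was -0.48 with the filter at the 75th percentile. Both higher genes were below the filter intensity in untreated cells and passed through the other arrays. With no filter 2 of 18 named genes were higher (11.1%) and 4 lower (22.2%), against 5.68% and 4.96% of all genes. CCN2 read 185 and 62.8 (2.94-fold), and MYOF read 1377 and 3044 (2.21 times lower). Of 21 other growth factor receptors, ROR1 (1.87-fold), MERTK (1.62-fold), LTK (1.59-fold) and RET (1.55-fold) were higher, and MET, the receptor of hepatocyte growth factor, was lower at 1478 and 2256, as was AXL at 279 and 450. Of the 4 higher receptors 2 were below the filter intensity in untreated cells. With no filter 4 of 29 named receptors were higher (13.8%). EGFR read 762 and 733, while EREG was the lower one of 6 genes of the EGF family.

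HCT116 has wild-type p53. Of the 31 genes on the p53 target list 15 were named and 14 passed the filter. Among these 14 genes 1 was higher, TP53INP1, an autophagy and death regulator, at 755 with MS-275 and 279 in untreated cells (2.71-fold), and 0 were lower. Of 7 CDK inhibitor genes only CDKN2A was named, so CDKN1A, the p53 target that encodes p21, is not covered here. Of 15 BCL2 family genes 1 was higher and 0 were lower. Both counts of higher genes (7.14% and 6.67%) are near the 6.94% of all genes. The BCL2 family gene was BCL2L11, which encodes the pro-apoptotic protein BIM (213 and 135, 1.57-fold). Of the 32 genes on the list of caspases, death receptors and inhibitors of apoptosis only 10 were named. Of the 7 past the filter 3 were lower (42.9%, against 6.84% of all genes). With no filter 3 of the 10 were lower (30%, against 4.96% of all genes). MLKL, the effector of necroptosis, read 93.0 and 225 (2.42 times lower) and CFLAR, an inhibitor of caspase-8, read 57.8 and 125 (2.16 times lower). The third was BIRC5, which encodes survivin and is also on a mitosis list (321 and 509). Of 17 genes of the unfolded protein and integrated stress responses 4 were lower (23.5%), PSAT1, an enzyme of serine synthesis (1299 and 2533), TRIB3 (192 and 354), ATF5 and PSPH, and ATF3 was higher at 107 and 71.5. KEAP1, which marks the transcription factor NRF2 for destruction, was 2.58 times lower (205 and 530), and of the other 21 genes of the NRF2 and glutathione list only GPX8 was past 1.5-fold (211 and 441).

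In metabolism, the cholesterol list had 4 of 19 genes higher (21.1%, against 6.94% of all genes) and 0 lower (median 0.18). They were MYLIP, a ligase that degrades the LDL receptor (307 with MS-275 and 173 in untreated cells, 1.78-fold), STARD4 (1.62-fold), INSIG1 (1.56-fold) and TM7SF2 (1.52-fold). In the fatty acid list 3 of 34 were higher (8.82%) and 2 lower (5.88%), shares near those of all genes, the lower ones being ACSL5 and PPARG (136 and 285). Metallothioneins bind zinc and copper. Of 6 genes of this list, with the activator MTF1 counted, 2 were higher (33.3%). MT1X, the brighter of these, read 3784 and 1858 (2.04-fold), and MT1F read 706 and 464 (1.52-fold). Metallothionein genes are close copies of each other, and how far their probes read more than 1 copy was not tested. Lysosomal genes included 4 higher members of 27 (14.8%), with NEU1, the sialidase, at 305 and 141 (2.17-fold) and the cathepsin genes CTSV, CTSK and CTSB at 1.94-fold, 1.85-fold and 1.63-fold, and 1 lower member, ATG12 (263 and 467).

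Gene groups that most cells need differed by small amounts. All 55 genes of the mitochondrial ribosome lay within 1.5-fold (median -0.15), and so did all 14 genes of the respiratory chain (median 0.09) and all 9 housekeeping genes (median -0.05). GAPDH read 493 with MS-275 and 511 in untreated cells. Of 24 ribosome biogenesis genes 1 was lower, but 23 had ratios below 0 (median -0.30), and of 44 splicing factors 2 were lower and 42 had ratios below 0 (median -0.25).

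The series holds the same MS-275 treatment in a second background, cells that also received hydroxyurea. Neither array of this background enters the ratio above, and each condition is again 1 array, but both enter the mean used for the filter. The genes counted were therefore chosen in part on these arrays, and the shares below are a description of the genes so chosen. With hydroxyurea present, 663 genes (8.67%) were higher with MS-275 by 1.5-fold or more and 414 (5.41%) were lower by as much. Of the 531 genes higher with MS-275 alone, 371 were also at least 1.5-fold higher with hydroxyurea present (69.9%, and 56.0% of the 663). Of the 523 lower genes, 223 were also at least 1.5-fold lower (42.6%, and 53.9% of the 414). At 2-fold the shares were 127 of 138 (92.0%) and 57 of 83 (68.7%). By sign alone, 521 of the 531 higher and 493 of the 523 lower genes had a difference in the same direction. Of the genes past 1.5-fold with MS-275 alone, 0 were past 1.5-fold in the opposite direction.

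All 15 highest genes were also at least 1.5-fold higher in the presence of hydroxyurea, between 2.46-fold (TSPAN13) and 9.41-fold (ENPP2). SNAI2 read 949 with MS-275/hydroxyurea and 177 with hydroxyurea (5.36-fold), and SYT11 read 1289 and 140 (9.21-fold). Of the 15 lowest genes 14 were also lower, from 1.58 times for LMNB1 to 5.06 times for ADGRF1. The exception was MCM10, which read 655 with MS-275/hydroxyurea and 704 with hydroxyurea.

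Lower genes on the cell cycle lists and lower genes off them differed in how many stayed lower with hydroxyurea present. Of the 82 lower genes on the 10 replication, cell cycle, mitosis and recombination lists, 9 were also lower with hydroxyurea present, whereas of the 441 lower genes on none of them 214 were (48.5%). The median log2 ratio of the 162 list genes was -0.59 without and -0.18 with hydroxyurea. The ratio of hydroxyurea alone over untreated cells had a median of 0.17 for these genes. Among the ranked genes that were at least 2-fold lower, 4 were less than 1.2 times lower in the second background. Besides MCM10 they were HASPIN (2.11 times lower without hydroxyurea and 1.03-fold higher with it), PLK4 (2.06 and 1.09 times lower) and KNTC1, a kinetochore protein that is on none of these lists (2.02 and 1.13 times lower). The median of the cyclin list was -0.44 without and -0.31 with hydroxyurea. Helicase loading also kept more of its difference than the 162 genes together, with a median of -0.53 and 3 of 8 genes lower. Among them was MCM5 (352 with MS-275/hydroxyurea and 638 with hydroxyurea, 1.81 times lower). TYMS (1.81 times lower) and UNG (1.69 times lower) also remained past 1.5-fold. Lists with higher genes varied. With hydroxyurea present the median was 0.36 for the neuronal cytoskeleton list, 0.92 for the mesenchymal list, 0.30 for axon guidance and 0.15 for metallothioneins. It was 0.06 for the 5 genes of the laminin, integrin and matrix list, none of them a laminin or an integrin. Of the 5 higher genes of the ERK list 2 were also higher there, and TP53INP1 was 1.34-fold and JUN 1.32-fold higher there.

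**Figure D5:**
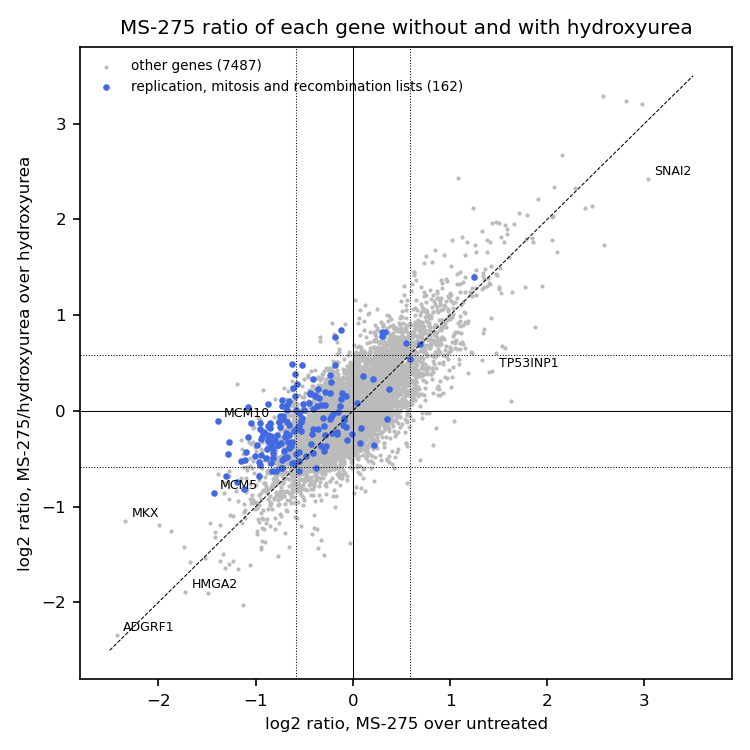
Log2 ratio of MS-275/hydroxyurea over hydroxyurea (vertical) against that of MS-275 over untreated (horizontal) for the 7649 genes, with the 162 genes of the replication, cell cycle, mitosis and recombination lists in blue, equal ratios as a dashed line and 1.5-fold as dotted lines. Most blue points lie left of 0 and above the dashed line, with MCM10 near 0 on the vertical axis.

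A few genes are read by a second cluster past the filter, which gives a check within the arrays. Over 183 such genes the log2 ratios of both clusters differed by a median of 0.08, and by 0.43 at the 90th percentile. Of the 16 of them that were past 1.5-fold in the brightest cluster, 16 had the same sign in the second and 10 were past 1.5-fold there.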

How the data were processed

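The authors hybridised RNA of each condition to 1 Affymetrix GeneChip Human Gene 2.0 ST array, summarised the signals by RMA (background correction, normalisation between arrays, 1 value per transcript cluster) and deposited linear intensity values. Neither the RMA software nor the genome build of the array is given in the sources used here. Of 53617 clusters 16098 had 1 gene symbol and the other 37519 are unnamed here. Log2 was taken of the deposited intensity, and ratios were computed in Python with numpy and pandas. The steps were tested on simulated arrays. Because each condition has 1 array, no test was run, and the number of arrays limits the precision. RMA draws dim intensities together, which makes ratios of dim genes smaller.

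The members, gene lists and alternatives were chosen with earlier results of these data known. The genes named are the 15 highest and 15 lowest ratios past the filter, the 5 highest below it, and members of each described list with the largest differences or nearest to no change, and all members of short lists could be named. Small RNAs, uncharacterised loci, antisense genes, pseudogenes and genes of olfactory receptors or keratin-associated proteins did not enter the rankings. Lists cover named genes only, which are few for some described lists, such as 7 of 44 for laminins, integrins and matrix. Some lists with few or no genes past the filter are not described here. KNTC1, TYMS and UNG with hydroxyurea, and the grouping of lists, were chosen after the values were seen.

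The alternatives were no filter, a filter at the 75th percentile of named clusters, the mean of all clusters of a gene, subtraction of each array's median, quantile normalisation of the log2 values, 32 added to every intensity, and a 2-fold rule.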

Additional observations from a re-analysis of the deposited data

How the results depend on the processing

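No replicate could be left out because each condition has 1 array, and no paired analysis was possible because the groups have 1 sample each and no test was run. The counts of genes higher and lower, 531 and 523, were 846 and 738 with no filter, 202 and 303 when it stood at the 75th percentile, and 138 and 83 at 2-fold. Averaging clusters, centring, quantile normalisation and adding 32 left them between 384 and 573 higher and between 373 and 529 lower. The number of lower genes with a difference of the same sign with hydroxyurea present was 493. With no filter the list medians were 0.055 for the EGF family, 0.28 for mesenchymal factors, 0.19 for laminins and matrix (0.69 with it), 0.27 for axon guidance and -0.019 for epithelial markers (-0.41 with it). At the 75th percentile the medians were -0.67 for Fanconi anaemia proteins, -0.58 for the EGF family, -0.0031 for other growth factor receptors, -0.48 for YAP and TEAD targets, -0.40 for the interferon response and 1.70 for mesenchymal factors, and after averaging of clusters 0.44 for laminins and matrix. All other list medians moved by at most 0.2. Among genes past 2-fold, the E2F motif was in 0.990% of higher and 20.6% of lower genes, and of the lower genes 17.5% held CHR, 28.6% CCAAT, 65.1% the GC box, 7.94% the E-box and 49.2% the metal response element, which 46.5% of the higher genes held. Adding 32 moved the log2 ratio of 37 named genes by over 0.2, since it shrinks ratios of dim genes. Averaging clusters moved 3, FOS (0.55), FADD (-0.12) and HSPA12A (0.18). Of 192 members at the ends of the lists or rankings that were past 1.5-fold, 27 were no longer so after adding 32, 7 after quantile normalisation (MARS1, MET, YAP1, EIF2AK2, PSPH, CLDN7 and SNRPD1), 1 after centring (KIF5A) and 1 after averaging (FOS). No called value changed sign under any alternative run.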

Other observations

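The remaining lists are set here against 6.94% of all genes higher and 6.84% lower. The shares of lower genes were above that for cytosolic tRNA synthetases (17.6%), NF-kappaB and inflammatory genes (18.2%), the interferon response (14.3%) and heat shock genes (14.3%), and the shares of higher genes for actin regulators (14.3%) and for glycolysis and hypoxia (12.5%), each on 2 to 4 genes. Of the 4 higher actin regulators 1 was below the filter intensity in untreated cells, and with no filter 12.9% of the 31 named were higher. Of 11 NF-kappaB and inflammatory genes 1 was higher, PTGS2 (111 with MS-275 and 63.6 in untreated cells, 1.74-fold), and 2 were lower, NFKB1 and IL18 (295 and 479). Of 14 interferon response genes 1 was higher, HERC6 (255 and 145, 1.76-fold), and 2 were lower, IFI35 (136 and 246) and EIF2AK2, the RNA-activated kinase (548 and 831). Of 15 genes of the TGF-beta and BMP pathway only LTBP1, which binds latent TGF-beta in the matrix, was past 1.5-fold (213 and 98.8, 2.15-fold). Of 8 intestinal differentiation genes past the filter CA2, carbonic anhydrase, was higher (918 and 445, 2.07-fold), and KLF4 (143 and 122) was not past 1.5-fold. Of 16 glycolysis and hypoxia genes EPAS1, which encodes the hypoxia factor HIF-2 alpha (551 and 295, 1.87-fold), and NDRG1 (267 and 147, 1.82-fold) were higher, and HK2, a hexokinase, was lower (165 and 268). Of 28 actin regulators 4 were higher, led by RHOB (512 and 301, 1.70-fold), and 2 were lower, with the myosin gene MYO5C at 190 and 395. Of 14 heat shock and chaperonin genes HSPA4L was higher (1141 and 694, 1.65-fold), and HSPH1 (839 and 1405) and HSPA14 (151 and 259) were lower. Of 17 cytosolic tRNA synthetase genes 3 were lower, YARS1 (220 and 392), AARS1 (1246 and 1970) and MARS1 (560 and 840). In antigen presentation TAPBP, which loads peptides onto class I molecules, was the only one of 8 genes past 1.5-fold (502 and 840).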
